A study of Mus musculus with 28 samples.

Results

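Transcripts of 35 enzymes of glycolysis and central carbon metabolism were followed through RNA-seq of sorted mouse CD4 T cells. The enzymes were listed by name, with no measured value in the rule, and all 35 were among the 23420 gene symbols counted. They fall into 15 enzymes of glycolysis, 5 that handle lactate or the entry of pyruvate into the mitochondrion, 4 of the pentose phosphate pathway, 7 of the citrate cycle and 4 linked to it, Idh1, Mdh1, Acly and Me2. The cells came from male mice aged 6 to 8 weeks. The KO group carried the Foxp3ΔCNS3-gfp allele, a Foxp3-gfp reporter that lacks the enhancer CNS3 of the Foxp3 gene, and the WT group carried the intact Foxp3-gfp reporter, so both genotypes carried gfp. In each genotype 4 populations were sorted, namely splenic aTreg, splenic rTreg and thymic Treg cells (regulatory T cells) and thymic CD4SP cells (mCD4SP in the titles), CD4 single-positive thymocytes labelled as not Treg cells. The sample titles do not spell out what a and r stand for. Each population had 4 KO and 3 WT libraries, 28 in all. The design names littermates but does not say which or how many animals gave each library, so p-values measure the spread between these samples, which may in part be technical.

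Glycolysis splits glucose into pyruvate and yields ATP and building blocks without oxygen. Hexokinase and phosphofructokinase are among its most regulated steps, and several steps are run by isozymes from separate genes. Pyruvate is either reduced to lactate or oxidised by the pyruvate dehydrogenase complex, which pyruvate dehydrogenase kinases such as Pdk1 switch off. The pentose phosphate pathway branches off near the top and makes NADPH and ribose, and the citrate cycle oxidises acetyl groups in the mitochondrion. T cells are known to raise glycolysis when they are activated, and Treg cells are known to depend on mitochondrial oxidation as well.

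Libraries held 2.20e+07 to 4.08e+07 counts in genes. Levels are given as CPM, the read count scaled to a common library size by the TMM method, and fold changes come from 1 edgeR quasi-likelihood fit over all libraries with Benjamini-Hochberg adjustment over the 13338 genes tested, which included all 35 enzymes. Foxp3, the gene whose enhancer was deleted, read 585, 446, 532 and 613 CPM in the KO and 671, 643 and 642 CPM in the WT thymic Treg libraries and 1.27, 1.91, 1.504 and 1.07 CPM in the KO and 3.23, 3.38 and 3.49 CPM in the WT CD4SP libraries. Its transcript lies outside the deleted enhancer, so its level does not check the genotype labels. It did check the sort, with KO and WT thymic Treg libraries far above the CD4SP libraries of the same genotype. Across all splenic Treg libraries Foxp3 lay between 492 and 662 CPM. Some libraries stood apart. KO CD4SP library 2 had the highest sums of myeloid, immature thymocyte and cell cycle markers of the 7 CD4SP libraries (255, 1272 and 2269 CPM), and KO thymic Treg libraries 1 and 2 had the highest sums of myeloid markers of all libraries (933 and 1231 CPM). Calls that ended without them are named with the results. So are calls gained without CD4SP library 2, Treg library 2 or Treg libraries 1 and 2 together. In sorted populations measured in bulk, fewer cells of a type and less RNA per cell cannot be told apart.

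The 35 transcripts together took 0.652 to 0.791% of the counts of a library. Counted per kilobase of transcript, so that genes can be compared, Ldha, the muscle-type subunit of lactate dehydrogenase, had the highest mean level over the libraries (532 CPM per kb). Pkm (pyruvate kinase) followed with 416, then Aldoa (aldolase) with 376, Mdh2 (mitochondrial malate dehydrogenase) with 375, and Mdh1, its cytosolic counterpart, with 251 CPM per kb. Hk2, one of the hexokinases, was the lowest at 1.31 CPM per kb. Gapdh, Eno1 and Pgam1, which act late in glycolysis, read only 2.09, 2.05 and 1.93 CPM per kb, and Pgk1 10.2. Of all 50-base windows in the transcripts, 82.5% (Gapdh), 72.2% (Eno1), 68% (Pgk1) and 41.5% (Pgam1) also occur in transcripts of other annotated genes, and reads that fit several places were not assigned to a gene. Values of these 4 genes rest on the reads unique to them, and their levels and changes are uncertain. Pkm, Pdhb, Ldhb and Gpi1 share between 25.3 and 34.4% of their windows with other genes.

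Over the 8 groups, the ratio of the highest to the lowest group mean had a median of 1.48 for the 35 genes. It stayed under 1.5 for 19 of them and was above 2 for 11. The ratio was not taken over all tested genes, so these values have no background. Aldoc, an aldolase isozyme best known from brain, and Hk2, the hexokinase induced in activated and cancer cells, spanned the widest ranges, 17.1 and 15.7 times. Pdk1, the kinase that shuts pyruvate dehydrogenase, spanned 3.28 times and Idh2, the mitochondrial NADP-dependent isocitrate dehydrogenase, 3.19 times. Next came Gapdh with 2.61 times and Tpi1 (triosephosphate isomerase) with 2.38 times. The narrowest ranges were those of Ogdh, a subunit of the oxoglutarate dehydrogenase complex, with 1.16 times and Cs (citrate synthase) with 1.17 times.

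Promoter sequence was sought for Hk2, Aldoc, Tpi1, Pdk1 and Idh2, which are among the widest-ranging genes. It is shown where RefSeq and GENCODE give the same start, which left Hk2 and Pdk1. RefSeq lists 2 starts for Pdk1, and only the first was read. Hk2 was high and Pdk1 low in thymic Treg cells relative to CD4SP cells, as given further on. Each line holds the 250 bases before the start, 5′ to 3′ along the gene, from RefSeq (GRCm38.p6). Capitals mark ACGTG, a form of the core to which hypoxia-inducible factors bind, and GGGCGG, the GC box bound by Sp factors, on either strand (CACGT and CCGCCC are their reverse complements). The other form of that core, GCGTG, was not searched or counted, and it occurs unmarked in the Pdk1 window.
Hk2, minus strand, chr6:82774455-82774704: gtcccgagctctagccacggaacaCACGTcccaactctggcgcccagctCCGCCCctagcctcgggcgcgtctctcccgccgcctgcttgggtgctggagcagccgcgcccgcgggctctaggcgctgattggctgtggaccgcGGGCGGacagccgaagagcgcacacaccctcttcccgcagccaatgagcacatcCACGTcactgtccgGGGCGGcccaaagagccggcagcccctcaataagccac
Pdk1, plus strand, chr2:71872974-71873223: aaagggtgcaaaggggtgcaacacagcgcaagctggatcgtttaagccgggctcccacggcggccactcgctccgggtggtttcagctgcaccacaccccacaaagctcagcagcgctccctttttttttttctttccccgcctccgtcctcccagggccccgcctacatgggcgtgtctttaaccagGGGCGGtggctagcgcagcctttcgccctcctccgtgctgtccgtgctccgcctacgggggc
The Hk2 window held ACGTG 2 times and GGGCGG 3 times, and the Pdk1 window held GGGCGG 1 time and no ACGTG. Of the 35 enzymes, 33 had a promoter in the table (Me2 and Idh3a did not), and 10 of the 33 windows (30.3%) held ACGTG, against 16.6% of all 32851 promoters and 21.7% of the promoters of tested genes. GGGCGG was in 23 of the 33 (69.7%), against 32.7% of all promoters and 56.9% of those of tested genes. These matches describe letters in a window and are not binding sites.

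Of the comparisons between populations, thymic Treg against thymic CD4SP cells gave the most calls, 22 in KO and 20 in WT. It asks how Treg cells differ from the other CD4 thymocytes. In KO mice 15 of the 35 enzymes were higher in Treg cells, where 30.0% of all tested genes were, and 7 were lower, where 26.5% were. In WT mice 10 were higher, where 26.8% of all genes were, and 10 were lower, where 21.6% were. The median log2 fold change of the 35 was 0.18 in KO and 0.02 in WT, beside 0.01 and 0.03 over all tested genes. The KO and WT comparisons share no library but come from the same fit. In them 10 enzymes were higher in both, 7 were lower in both and none went opposite ways. This overlap was not counted over all genes, so it is not read as particular to the enzymes. Counted by step, of the 15 glycolytic enzymes, 10 were higher and 0 lower in KO Treg cells (median 0.47), and 7 were higher and 0 lower in WT Treg cells (median 0.33). Of the 7 citrate cycle enzymes, 1 was higher and 2 were lower in KO, and 0 were higher and 4 lower in WT.

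Hk2 (chromosome 6, 82725025 to 82774454, minus strand) catalyses the first step of glycolysis, the phosphorylation of glucose. It read 10.9, 10.9, 15.0 and 11.8 CPM in KO thymic Treg libraries and 9.05, 9.15 and 11.03 in WT ones, against 0.450, 5.09, 1.01 and 1.15 in KO CD4SP libraries and 1.08, 0.303 and 0.939 in WT ones. Every Treg library lay above every CD4SP library of either genotype, and KO CD4SP library 2 lay well above the other 6 CD4SP libraries. Hk2 had a log2 fold change of 2.66 ± 0.38 SE in KO and 3.70 ± 0.48 SE in WT, 6.30 and 13.0 times (adjusted p = 9.22e-07 in KO and 2.78e-07 in WT), and without KO CD4SP library 2 the KO value was 3.75 ± 0.28 SE. The more abundant hexokinase Hk1 read 206, 106, 176 and 194 CPM in KO thymic Treg libraries and 145, 166 and 173 in WT ones, against 109, 92.3, 120.5 and 127 in KO CD4SP libraries and 115, 119 and 103 in WT ones. KO thymic Treg library 2 lay within the CD4SP range and the other Treg libraries above it, with a log2 fold change of 0.60 ± 0.13 SE in KO and 0.52 ± 0.15 SE in WT. Gpi1, which isomerises glucose phosphate to fructose phosphate, was also higher, with 1.48 and 1.26 times the CD4SP level in KO and in WT.

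Phosphofructokinase was represented by its 3 isozyme genes. Pfkl, the liver isozyme, read 103, 68.1, 101 and 97.5 CPM in KO thymic Treg libraries and 65.3, 79.1 and 88.3 in WT ones, against 37.5, 45.4, 48.6 and 43.5 in KO CD4SP libraries and 44.5, 49.0 and 47.3 in WT ones. All Treg libraries lay above all CD4SP libraries, with a log2 fold change of 1.08 ± 0.12 SE in KO and 0.72 ± 0.13 SE in WT (adjusted p = 6.27e-09 in KO and 5.02e-05 in WT). Pfkp, the platelet isozyme and the most abundant of them, read 166, 118, 163 and 169 CPM in KO thymic Treg libraries and 139, 146 and 163 in WT ones, against 140.1, 132, 157 and 159 in KO CD4SP libraries and 151, 158 and 150.1 in WT ones. These overlapped in both genotypes and did not pass the test, and neither did the muscle isozyme Pfkm. Pfkfb3, which makes the activator of phosphofructokinase, read 56.4, 42.3, 48.7 and 63.8 CPM in KO thymic Treg libraries and 51.4, 57.9 and 59.7 in WT ones, against 36.5, 35.6, 37.1 and 43.1 in KO CD4SP libraries and 34.4, 41.7 and 37.0 in WT ones. The KO groups overlapped and the WT groups did not, with a log2 fold change of 0.47 ± 0.11 SE in KO and 0.58 ± 0.13 SE in WT (adjusted p = 0.000739 in KO and 0.000491 in WT).

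Aldolase cleaves the sugar into 2 trioses, and Tpi1 interconverts them. Aldoc (chromosome 11, 78322968 to 78327781, plus strand) read 8.22, 4.90, 9.93 and 8.42 CPM in KO thymic Treg libraries and 4.35, 4.19 and 5.75 in WT ones, against 0.491, 0.794, 0.944 and 0.986 in KO CD4SP libraries and 0.853, 1.08 and 0.644 in WT ones. Every Treg library exceeded every CD4SP library. The log2 fold change of 3.26 ± 0.26 SE in KO and 2.46 ± 0.29 SE in WT corresponds to 9.58 and 5.51 times (adjusted p = 1.46e-11 in KO and 6.05e-08 in WT). Aldoa (chromosome 7, 126795234 to 126800751, minus strand), which made up over 98% of aldolase transcript per kilobase in every group, read 710.4, 628, 729 and 665 CPM in KO thymic Treg libraries and 543, 542 and 577 in WT ones, against 497, 424, 524 and 509.6 in KO CD4SP libraries and 553, 532 and 478 in WT ones. The KO groups were separate and Aldoa was higher in KO Treg cells, with a log2 fold change of 0.48 ± 0.07 SE (adjusted p = 3.76e-07). In WT the groups overlapped (log2 fold change 0.09 ± 0.08 SE, adjusted p = 0.349). Tpi1 (chromosome 6, 124810586 to 124814296, minus strand) read 118, 108, 142 and 114 CPM in KO thymic Treg libraries and 85.2, 91.8 and 101 in WT ones, against 45.3, 66.0, 42.6 and 48.2 in KO CD4SP libraries and 45.7, 54.0 and 52.5 in WT ones. All Treg libraries lay above all CD4SP libraries, the highest of which was KO CD4SP library 2, and the log2 fold change of 1.25 ± 0.11 SE in KO and 0.87 ± 0.13 SE in WT corresponds to 2.38 and 1.83 times (adjusted p = 9.93e-11 in KO and 1.55e-06 in WT). Pgk1 and Pkm passed the test in KO alone (log2 fold change 0.35 ± 0.10 SE and 0.20 ± 0.08 SE).

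At the fork of pyruvate, most enzymes were lower in Treg cells. Of the 5 enzymes for lactate and pyruvate, 1 was higher and 3 lower in KO, and 1 was higher and 4 lower in WT. Pdk1 (chromosome 2, 71873224 to 71903858, plus strand) read 69.5, 50.2, 57.1 and 61.7 CPM in KO thymic Treg libraries and 77.5, 65.2 and 68.6 in WT ones, against 233, 157, 185 and 203 in KO CD4SP libraries and 233, 167 and 183 in WT ones. All Treg libraries lay below all CD4SP libraries. Pdk1 was 69.3% lower in KO and 63.7% lower in WT, a log2 fold change of -1.70 ± 0.14 SE in KO and -1.46 ± 0.15 SE in WT (adjusted p = 1.35e-11 in KO and 6.42e-09 in WT). The catalytic subunits of pyruvate dehydrogenase, the target of Pdk1, were lower by smaller amounts. Pdhb, the beta subunit, read 111, 126, 114 and 109.8 CPM in KO thymic Treg libraries and 113, 112 and 112 in WT ones, against 161, 146, 136 and 160.2 in KO CD4SP libraries and 143, 154 and 139.6 in WT ones. The groups were separate in both genotypes, and Pdhb was 23.6% lower in KO and 22.8% lower in WT. Pdha1, the alpha subunit, read 325, 317, 299.9 and 309 CPM in KO thymic Treg libraries and 311, 321 and 314 in WT ones, against 342, 359, 336 and 378 in KO CD4SP libraries and 332, 375 and 362 in WT ones. It was 11.6% lower in KO (-0.18 ± 0.06 SE) and 11.6% lower in WT (-0.18 ± 0.06 SE, log2 scale).

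The lactate dehydrogenase subunits went different ways. Ldha, which favours the making of lactate, read 940.4, 1019, 1068 and 934 CPM in KO thymic Treg libraries and 787, 920.2 and 945 in WT ones, against 1078, 1129, 1098 and 1133 in KO CD4SP libraries and 1014, 1254 and 1163 in WT ones. The groups were separate in each genotype. Ldha was lower in WT Treg cells (-0.37 ± 0.10 SE on the log2 scale, adjusted p = 0.00296), and in KO the fold change of -0.16 ± 0.09 SE did not pass the test (adjusted p = 0.107). With the replicate number as a block Ldha passed in KO (-0.17 ± 0.06 SE, adjusted p = 0.0136). Ldhb, the heart-type subunit, read 110.2, 117, 114 and 118 CPM in KO thymic Treg libraries and 96.2, 112 and 115 in WT ones, against 82.0, 105, 83.3 and 95.1 in KO CD4SP libraries and 83.6, 92.9 and 99.6 in WT ones. It was higher in Treg cells with a log2 fold change of 0.33 ± 0.08 SE in KO and 0.23 ± 0.09 SE in WT, and the WT groups overlapped.

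In the pentose phosphate pathway the 2 enzymes that shuffle sugar carbons moved in opposite directions. Tkt (transketolase) read 313, 237, 289 and 311 CPM in KO thymic Treg libraries and 235, 233 and 279.6 in WT ones, against 137, 164, 158 and 159.8 in KO CD4SP libraries and 152, 159 and 146 in WT ones. No Treg library overlapped the CD4SP range, and all were higher, with a log2 fold change of 0.89 ± 0.09 SE in KO and 0.71 ± 0.10 SE in WT (adjusted p = 1.36e-09 in KO and 1.43e-06 in WT). Taldo1 (transaldolase) read 244, 257, 261 and 227 CPM in KO thymic Treg libraries and 219, 213 and 223 in WT ones, against 294, 281, 297 and 305 in KO CD4SP libraries and 300.5, 328 and 297 in WT ones. All Treg libraries lay below all CD4SP libraries, and Taldo1 was 16.0% lower in KO and 29.2% lower in WT (adjusted p = 0.000454 in KO and 3.67e-07 in WT). G6pdx and Pgd, the enzymes that make NADPH, did not pass the test in either genotype. Without KO thymic Treg library 2 both passed as higher in KO Treg cells (adjusted p = 0.0417 and 0.0122).

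The genes for isocitrate dehydrogenase moved in different directions. Idh2 (chromosome 7, 80094846 to 80115392, minus strand) read 37.2, 36.6, 38.8 and 31.3 CPM in KO thymic Treg libraries and 35.1, 35.1 and 40.6 in WT ones, against 85.7, 94.2, 92.3 and 97.7 in KO CD4SP libraries and 97.0, 102 and 95.3 in WT ones. The groups were far apart, and Idh2 was 61.1% lower in KO and 62.3% lower in WT, a log2 fold change of -1.36 ± 0.08 SE in KO and -1.41 ± 0.09 SE in WT (adjusted p = 4.53e-15 in KO and 7.97e-14 in WT). Idh1, the cytosolic NADP-dependent form, was higher in Treg cells. It read 27.6, 32.7, 23.3 and 18.6 CPM in KO thymic Treg libraries and 21.7, 17.7 and 20.9 in WT ones, against 12.1, 15.2, 11.6 and 11.5 in KO CD4SP libraries and 8.57, 13.9 and 14.2 in WT ones. All Treg libraries lay above all CD4SP libraries, KO thymic Treg libraries 1 and 2 were the highest, and the log2 fold change of 1.02 ± 0.16 SE in KO and 0.71 ± 0.18 SE in WT corresponds to 2.03 and 1.64 times. Without these 2 libraries the KO log2 fold change of Idh1 was 0.73 ± 0.17 SE (adjusted p = 0.000888). Idh3a, a subunit of the NAD-dependent enzyme of the citrate cycle, read 156, 162, 159 and 152 CPM in KO thymic Treg libraries and 129.7, 137 and 146 in WT ones, against 162, 189, 167 and 173 in KO CD4SP libraries and 165, 182 and 176 in WT ones. It was 21.0% lower in WT Treg cells (adjusted p = 0.000604), and in KO its log2 fold change of -0.14 ± 0.07 SE did not pass the test (adjusted p = 0.0858). With the replicate number as a block Idh3a passed in KO (-0.13 ± 0.05 SE, adjusted p = 0.035). Me2, the mitochondrial malic enzyme that turns malate into pyruvate, read 84.6, 85.3, 96.4 and 83.7 CPM in KO thymic Treg libraries and 104, 96.6 and 91.4 in WT ones, against 138, 123, 146 and 144 in KO CD4SP libraries and 151, 158 and 139.6 in WT ones. All Treg libraries lay below all CD4SP libraries, and Me2 was 36.6% lower in KO and 34.8% lower in WT (adjusted p = 3.35e-08 in KO and 1.46e-06 in WT). Sucla2, a subunit of succinyl-CoA ligase, was 13.2% and 16.9% lower in KO and WT.

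**Figure D1:**
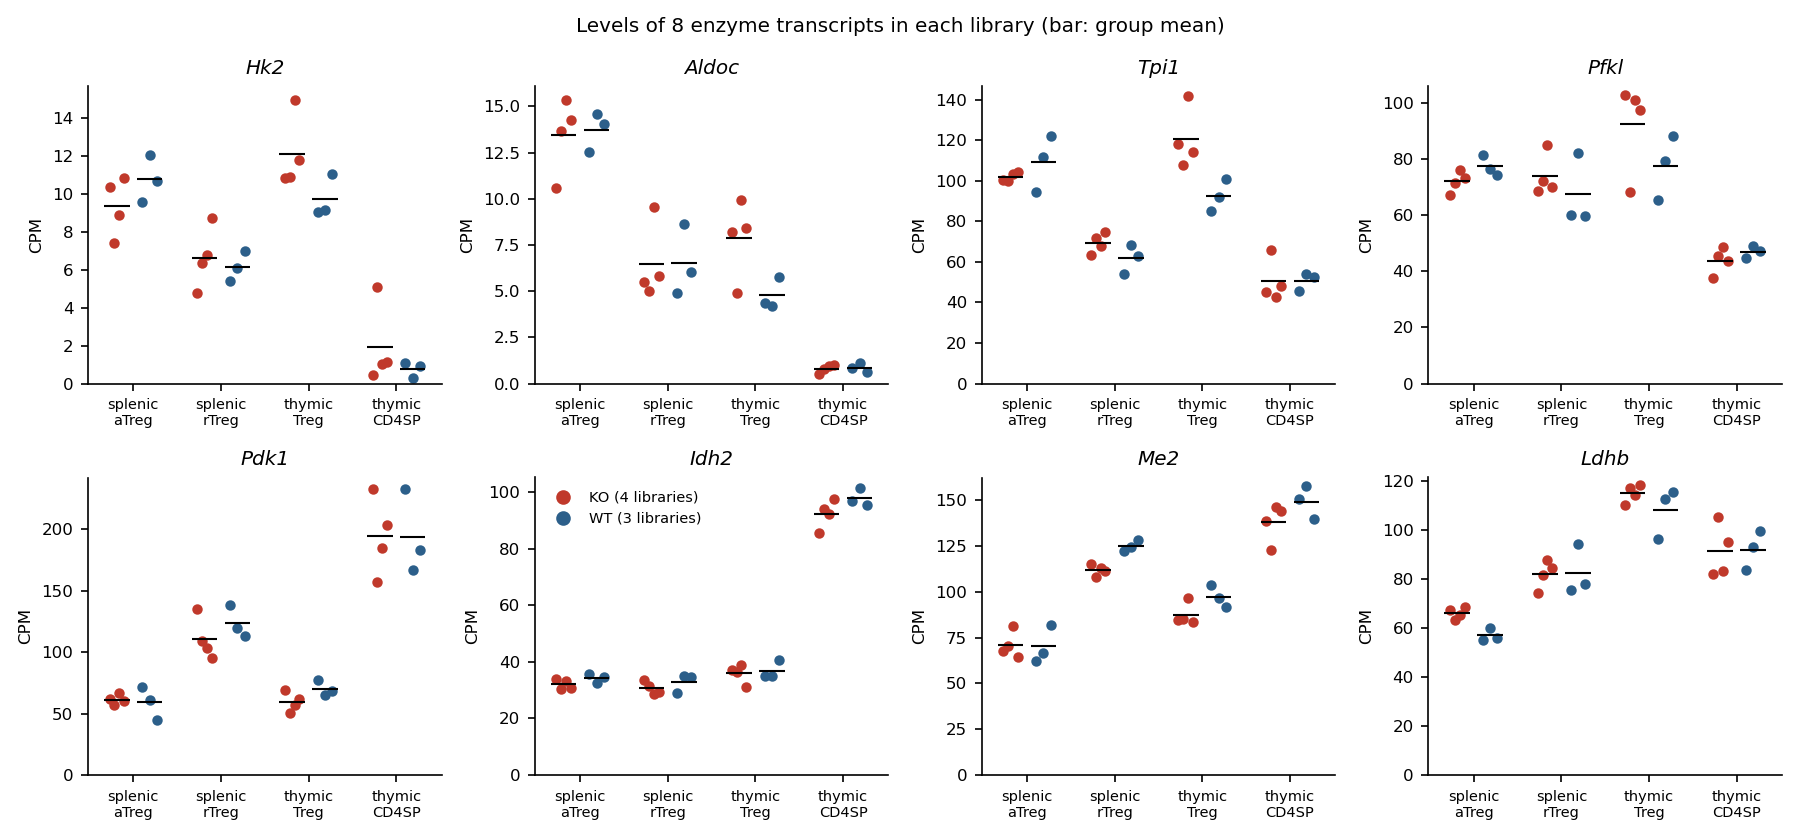
Levels of 8 enzyme transcripts in CPM (vertical axis, from 0) in each library, by population (horizontal axis), with KO in red left of WT in blue and a bar at each group mean. Hk2 and Aldoc are near 0 in CD4SP cells and higher in all Treg populations, Pdk1, Idh2 and Me2 are highest in CD4SP cells, and KO CD4SP library 2 stands above the other CD4SP libraries for Hk2 and Tpi1.

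Other genes of the same pathways also differed. Of 14 other tested glycolytic genes, 6 were higher and 5 lower in KO, and 5 were higher and 4 lower in WT. The muscle and neuronal enolases Eno3 and Eno2 led them. Eno3 averaged 187 ± 12.8 CPM in KO Treg cells and 179.5 ± 12.9 CPM in WT Treg cells, against 14.6 ± 1.62 and 13.8 ± 0.877 in CD4SP cells of the same genotypes, and Eno2 averaged 30.0 ± 3.04 CPM in KO Treg cells and 34.6 ± 2.46 CPM in WT Treg cells, against 2.70 ± 0.671 and 1.81 ± 0.160 in CD4SP cells of the same genotypes. Both were higher in Treg cells (log2 fold change 3.68 and 3.70 for Eno3 in KO and WT, 3.48 and 4.26 for Eno2). Galm (galactose mutarotase) was higher, and Pfkfb2, Minpp1 and Bpgm, which act on phosphofructokinase or on bisphosphoglycerate, were lower in both genotypes. Of the 6 genes of glucose and lactate transport, 5 were higher and 1 lower in KO, and 4 were higher and 1 lower in WT. The high-affinity glucose transporter gene Slc2a3 averaged 137 ± 25.2 CPM in KO and 174 ± 2.36 CPM in WT Treg cells, against 54.0 ± 10.2 and 54.0 ± 6.30 in CD4SP cells of the same genotypes. The lactate exporter gene Slc16a3 averaged 17.5 ± 0.969 CPM and 16.3 ± 3.64 CPM, against 1.74 ± 0.636 and 1.69 ± 0.375. Slc2a6, another sugar transporter gene, averaged 4.97 ± 1.09 CPM and 3.31 ± 0.430 CPM in Treg cells and lay close to 0 in CD4SP cells, while the lactate transporter gene Slc16a1 was lower in Treg cells (log2 fold change -0.57 in KO and -0.81 in WT).

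Of 11 other genes for lactate and pyruvate, 3 were higher and 3 lower in KO, and 3 were higher and 3 lower in WT, and the kinases Pdk2 and Pdk3 were higher in Treg cells where Pdk1 was lower. Pdk2 averaged 24.2 ± 3.82 CPM in KO and 29.4 ± 0.842 CPM in WT Treg cells, against 13.0 ± 2.37 and 14.3 ± 3.63 in CD4SP cells. Pdp1, the phosphatase that reactivates pyruvate dehydrogenase, was higher too, and Ldhd and Pdhx were lower in both genotypes. Of 8 other pentose phosphate genes, 1 was higher and 2 lower in KO, and 1 was higher and 2 lower in WT, with Pgls higher and Rpe and Prps2 lower in both. Of 21 other genes of the citrate cycle and linked steps, 9 were higher and 4 lower in KO, and 7 were higher and 5 lower in WT. Suclg2, Got1 and Got2 were higher and Acss2 and Suclg1 lower in both genotypes. Of the 13 regulators of these pathways, 3 were higher and 4 lower in KO, and 5 were higher and 3 lower in WT. Hif1a, the hypoxia-inducible activator of glycolytic genes, averaged 173 ± 9.87 CPM in KO and 166 ± 4.38 CPM in WT Treg cells, against 83.5 ± 1.25 and 80.2 ± 3.90 in CD4SP cells. Myc, another activator of glycolytic genes, averaged 297 ± 37.3 CPM and 267 ± 10.1 CPM, against 147 ± 17.5 and 159 ± 21.1, and Egln3, a target of hypoxia-inducible factors, was also higher. Nfe2l2, which drives antioxidant and pentose phosphate genes, averaged 66.0 ± 7.21 CPM and 68.6 ± 4.95 CPM, against 205 ± 21.7 and 237 ± 1.73, and Mlx and Egln1 were lower.

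Markers of other cell types moved with this comparison. The 15 myeloid markers summed to 531 to 1231 CPM in KO and 329 to 475 in WT Treg libraries, against 89.4 to 255 in KO and 95.1 to 103 in WT CD4SP libraries. All 15 were higher in KO Treg cells and 14 of 15 in WT Treg cells, and none was at 0 in any of these groups. The 20 cell cycle markers were lower in Treg cells in 12 cases (2 higher) in KO and 16 in WT, with sums of 1177 to 1398 CPM in KO and 818 to 1043 in WT Treg libraries, against 1371 to 2269 and 1362 to 1589 in CD4SP libraries. The 9 immature thymocyte markers summed to 248 to 281 CPM in KO and 327 to 429 in WT Treg libraries, against 564 to 1272 and 540.3 to 650.4 in CD4SP libraries, and of 9 tested, 1 was higher and 7 lower in KO and 1 was higher and 1 lower in WT. The 10 dendritic cell markers summed to 508 to 923 CPM in KO and 440.3 to 606 in WT Treg libraries, against 56.3 to 259 and 46.3 to 69.9 in CD4SP libraries, and of 9 tested, 6 were higher and 0 lower in KO and 7 were higher and 0 lower in WT. The 9 CD8 and NK cell markers summed to 459.7 to 541 CPM in KO and 308 to 360.3 in WT Treg libraries, against 95.4 to 186 and 97.7 to 106 in CD4SP libraries, and of 7 tested, 2 were higher and 1 lower in KO and 3 were higher and 1 lower in WT. The 9 B cell markers summed to 47.8 to 53.2 CPM in KO and 33.4 to 37.5 in WT Treg libraries, against 7.15 to 37.4 and 7.37 to 9.23 in CD4SP libraries, and of 9 tested, 4 were higher and 1 lower in KO and 5 were higher and 0 lower in WT. In each genotype these 4 sums did not overlap between the populations. Klra8, an NK cell receptor gene, was at 0 in all groups and Pax5, a B cell factor, in the WT groups, while no dendritic or immature thymocyte marker was. The share of reads outside genes was 46.3 to 49.3% in WT Treg and 42.5 to 45.4% in WT CD4SP libraries, with no overlap. In KO this share overlapped. The part of all these markers and of this share in the enzyme differences was not tested. In KO, 21 enzymes passed without Treg libraries 1 and 2, where the call of Fh1 ended (adjusted p = 0.182), and 19 without CD4SP library 2, where those of Acly, Pkm and Sucla2 ended, beside 22 with all libraries. The calls of Fh1, Pkm, Acly and Sucla2 in KO each ended without at least 1 single library (Fh1 without any of 7, Pkm without any of 6, Acly without any of 4 and Sucla2 without either of 2, adjusted p up to 0.166). In WT the call of Gpi1 ended without CD4SP library 3, that of Ldhb without CD4SP library 1 or 2 or Treg library 2 or 3, and that of Pdha1 without CD4SP library 2 or 3 or Treg library 1 or 3 (adjusted p up to 0.188).

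The splenic populations ask how aTreg cells differ from rTreg cells. In KO mice 7 enzymes were higher in aTreg cells, where 21.7% of all tested genes were, and 9 were lower, where 19.9% were. In WT mice 10 were higher, where 19.9% of all genes were, and 6 lower, where 18.1% were. The median log2 fold change of the 35 was 0.04 in KO and 0.05 in WT, beside 0.01 and -0.01 over all tested genes. Aldoa, Aldoc, Tpi1, Pgam1, Idh3a, Mdh1 and Acly were higher in both genotypes, and Pfkm, Ldhb, Pdk1, Pdha1 and Me2 were lower in both. By step, of the 15 glycolytic enzymes 4 were higher and 2 lower in KO, and 6 were higher and 1 lower in WT. Of the 5 enzymes for lactate and pyruvate, 0 were higher and 3 lower in KO, and 0 were higher and 4 lower in WT. The pentose phosphate enzymes gave 2 of 4 lower in KO and 0 in WT, with 0 higher in either.

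Among the glycolytic enzymes, Tpi1 read 100.4, 99.9, 103 and 104 CPM in KO aTreg libraries and 94.5, 112 and 122 in WT ones, against 63.6, 71.6, 67.9 and 74.6 in KO rTreg libraries and 53.8, 68.4 and 63.0 in WT ones. All aTreg libraries lay above all rTreg libraries, and the log2 fold change of 0.56 ± 0.11 SE in KO and 0.83 ± 0.13 SE in WT corresponds to 1.47 and 1.77 times (adjusted p = 0.000147 in KO and 5.68e-06 in WT). Aldoa, the main aldolase, read 695, 680.1, 682 and 699 CPM in KO aTreg libraries and 651, 644 and 749 in WT ones, against 524, 505, 548 and 536 in KO rTreg libraries and 525, 503 and 469 in WT ones. The populations were separate, with a log2 fold change of 0.38 ± 0.07 SE in KO and 0.45 ± 0.08 SE in WT (adjusted p = 2.66e-05 in KO and 2.36e-05 in WT). The minor isozyme Aldoc read 10.6, 13.7, 15.4 and 14.3 CPM in KO aTreg libraries and 12.5, 14.6 and 14.1 in WT ones, against 5.49, 4.98, 9.53 and 5.82 in KO rTreg libraries and 4.92, 8.66 and 6.04 in WT ones. It was 2.09 and 2.10 times higher in aTreg cells of KO and WT, again with no overlap. Pkm, which makes pyruvate, read 987, 990.0, 1061 and 1029.8 CPM in KO aTreg libraries and 1033, 1105 and 1194 in WT ones, against 864, 886, 984 and 837 in KO rTreg libraries and 793, 991 and 745 in WT ones. It passed the test in WT (0.40 ± 0.09 SE on the log2 scale, adjusted p = 0.00112) and not in KO (0.19 ± 0.08 SE, adjusted p = 0.0608), where it passed with the replicate number as a block (adjusted p = 0.0411), and the difference between the genotypes, tested on its own, did not pass either (adjusted p = 1). The muscle-type Pfkm was lower in aTreg cells. It read 11.6, 12.5, 9.90 and 11.7 CPM in KO aTreg libraries and 14.4, 12.1 and 11.7 in WT ones, against 15.3, 16.8, 15.6 and 16.5 in KO rTreg libraries and 16.7, 21.8 and 14.7 in WT ones. No library of the aTreg groups reached its rTreg group, with a log2 fold change of -0.49 ± 0.13 SE in KO and -0.47 ± 0.15 SE in WT. The hexokinases Hk1 and Hk2 did not pass the test. Hk2 read 10.4, 7.42, 8.89 and 10.8 CPM in KO aTreg libraries and 9.59, 12.04 and 10.7 in WT ones, against 4.77, 6.33, 6.77 and 8.71 in KO rTreg libraries and 5.41, 6.09 and 6.997 in WT ones, with every aTreg library except KO library 2 above the highest rTreg library, a log2 fold change of 0.49 ± 0.34 SE in KO and 0.80 ± 0.40 SE in WT and adjusted p = 0.261 in KO and 0.112 in WT. Hk1 read 152, 141, 161 and 148 CPM in KO aTreg libraries and 167, 150.3 and 141 in WT ones, against 149.8, 151, 163 and 139.7 in KO rTreg libraries and 146, 169 and 133 in WT ones. Pfkl read 67.1, 71.6, 75.9 and 73.2 CPM in KO aTreg libraries and 81.4, 76.3 and 74.2 in WT ones, against 68.6, 72.2, 84.8 and 69.9 in KO rTreg libraries and 60.0, 82.2 and 59.8 in WT ones, and Pfkp read 181, 172, 203 and 192 CPM in KO aTreg libraries and 213, 197 and 189 in WT ones, against 178, 166, 203 and 169.9 in KO rTreg libraries and 157, 189 and 149 in WT ones. None of these 3 passed the test in either genotype. With the block Pfkp passed in WT (0.27 ± 0.09 SE on the log2 scale, adjusted p = 0.0131).

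Of the enzymes for pyruvate and lactate, Pdk1 read 61.8, 56.8, 66.5 and 60.1 CPM in KO aTreg libraries and 71.5, 61.1 and 45.01 in WT ones, against 135, 109, 103 and 95.2 in KO rTreg libraries and 138, 119.8 and 113 in WT ones. All aTreg libraries lay below all rTreg libraries, and Pdk1 was 44.7% lower in KO and 52.1% lower in WT (adjusted p = 8.89e-06 in KO and 3.32e-06 in WT). Pdha1, the subunit that Pdk1 phosphorylates, read 229.8, 237, 262 and 272 CPM in KO aTreg libraries and 250.1, 249 and 249 in WT ones, against 332, 300.1, 335 and 317 in KO rTreg libraries and 329.5, 331 and 327 in WT ones. The populations were separate, and Pdha1 was 22.1% lower in KO and 24.2% lower in WT. Its partner Pdhb read 95.8, 104, 97.0 and 107 CPM in KO aTreg libraries and 92.2, 103 and 107 in WT ones, against 110.2, 110.2, 115 and 104 in KO rTreg libraries and 119, 126 and 116 in WT ones. It passed the test in WT (-0.26 ± 0.07 SE on the log2 scale) and not in KO (-0.12 ± 0.06 SE, adjusted p = 0.114). Ldhb read 67.2, 63.2, 65.2 and 68.4 CPM in KO aTreg libraries and 55.0, 59.9 and 56.1 in WT ones, against 74.4, 81.6, 87.9 and 84.4 in KO rTreg libraries and 75.5, 94.4 and 77.9 in WT ones. All aTreg libraries lay below all rTreg libraries, with a log2 fold change of -0.32 ± 0.08 SE in KO and -0.54 ± 0.09 SE in WT (adjusted p = 0.00255 in KO and 4.13e-05 in WT). Ldha read 762, 792, 902 and 904 CPM in KO aTreg libraries and 768, 904 and 1054 in WT ones, against 857, 897, 1008 and 963 in KO rTreg libraries and 815, 969 and 956 in WT ones. Its groups overlapped and it did not pass the test in either genotype. With the block it passed in KO (-0.15 ± 0.06 SE on the log2 scale, adjusted p = 0.0332).

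Acly and Mdh1, which act on citrate and malate in the cytosol, were higher in aTreg cells, and Me2 was lower. Acly, which splits citrate into acetyl-CoA for lipid synthesis, read 272, 302, 314 and 294 CPM in KO aTreg libraries and 287, 334 and 307 in WT ones, against 218, 227, 249 and 232 in KO rTreg libraries and 213, 271 and 206 in WT ones. All aTreg libraries lay above all rTreg libraries, with a log2 fold change of 0.35 ± 0.10 SE in KO and 0.43 ± 0.11 SE in WT (adjusted p = 0.00413 in KO and 0.00293 in WT). Mdh1 read 634, 602, 615 and 641 CPM in KO aTreg libraries and 559, 657 and 708 in WT ones, against 506, 490.1, 499.6 and 522 in KO rTreg libraries and 463, 493.3 and 500.4 in WT ones. The populations were separate, with a log2 fold change of 0.31 ± 0.08 SE in KO and 0.40 ± 0.09 SE in WT (adjusted p = 0.00169 in KO and 0.000531 in WT). Idh3a of the citrate cycle read 194, 188, 203 and 209.9 CPM in KO aTreg libraries and 167, 191 and 215 in WT ones, against 158, 162, 168 and 172 in KO rTreg libraries and 147, 158 and 173 in WT ones. The KO groups were separate and the WT groups overlapped, with a log2 fold change of 0.27 ± 0.07 SE in KO and 0.26 ± 0.08 SE in WT. Me2 read 67.4, 70.4, 81.2 and 64.5 CPM in KO aTreg libraries and 62.1, 66.7 and 81.7 in WT ones, against 115, 108, 113 and 111 in KO rTreg libraries and 122, 125 and 128 in WT ones. All aTreg libraries lay below all rTreg libraries, and Me2 was 36.6% lower in KO and 43.9% lower in WT (adjusted p = 9.75e-08 in KO and 2.1e-08 in WT). In the pentose phosphate pathway Tkt read 203, 213, 244 and 235 CPM in KO aTreg libraries and 245, 244 and 268 in WT ones, against 271, 279, 318 and 277 in KO rTreg libraries and 246, 295 and 230.1 in WT ones. It was lower in KO aTreg cells (-0.36 ± 0.09 SE, log2 scale) and did not pass the test in WT (-0.03 ± 0.10 SE). G6pdx, the first enzyme of the pathway, read 51.4, 54.8, 64.6 and 62.4 CPM in KO aTreg libraries and 61.9, 59.4 and 62.6 in WT ones, against 75.5, 78.1, 82.9 and 64.2 in KO rTreg libraries and 70.1, 74.5 and 65.9 in WT ones. It was lower in KO aTreg cells (-0.37 ± 0.08 SE) and in WT its log2 fold change of -0.20 ± 0.09 SE did not pass the test (adjusted p = 0.0829).

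**Figure D2:**
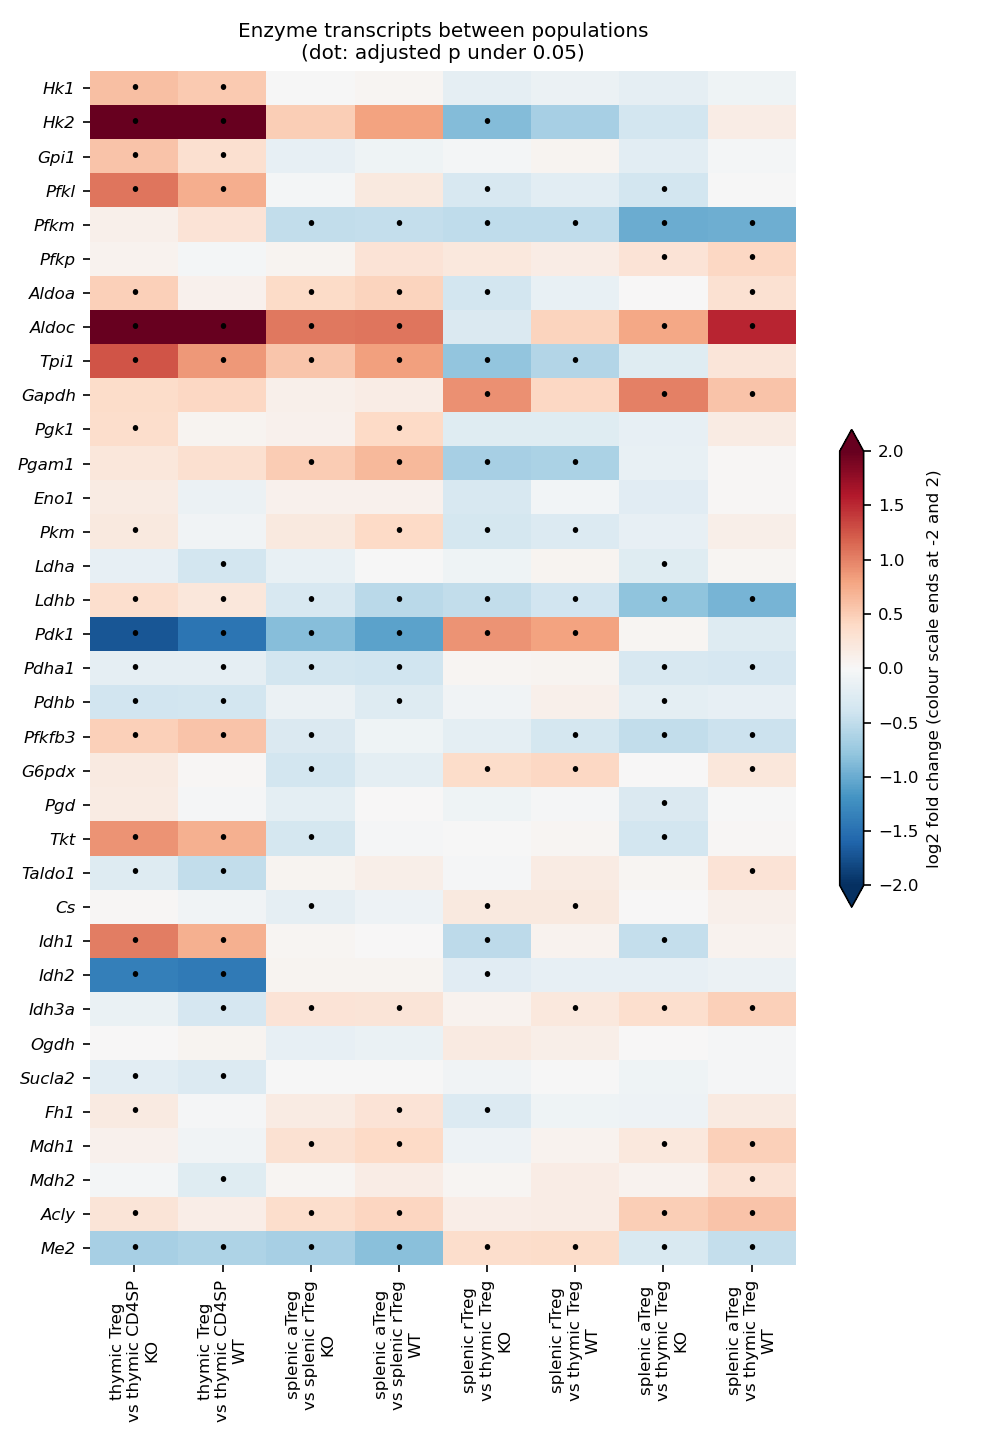
Log2 fold change (colour, red higher and blue lower in the population named first, scale ending at -2 and 2) of each of the 35 enzymes (rows) in 8 comparisons between populations (columns), KO left of WT, with a dot where the adjusted p is under 0.05. Hk2 and Aldoc exceed the scale between thymic Treg and CD4SP cells, and in each comparison no enzyme with a dot in both KO and WT has opposite colours.

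Of the 14 other glycolytic genes, 4 were higher and 3 lower in KO, and 5 were higher and 4 lower in WT. Galm and Bpgm were higher in both genotypes. Eno3, the enolase that was high in thymic Treg cells, averaged 36.0 ± 0.596 CPM in KO and 40.5 ± 3.02 CPM in WT aTreg cells, against 97.1 ± 8.52 and 89.9 ± 4.38 in rTreg cells, and Pfkfb2 and Adpgk were also lower in both. Of the 6 transport genes, 3 were higher and 1 lower in KO, and 2 were higher and 1 lower in WT, with the lactate exporter Slc16a3 higher (log2 fold change 0.95 in KO and 0.99 in WT), Slc2a6 higher, and the glucose transporter Slc2a1 lower (-0.32 and -0.39). Of 11 other genes for lactate and pyruvate, 1 was higher and 4 lower in KO, and 1 was higher and 3 lower in WT. Pdk3 averaged 35.7 ± 3.64 CPM in KO and 30.9 ± 3.02 CPM in WT aTreg cells, against 19.98 ± 2.02 and 20.6 ± 1.54 in rTreg cells, the direction opposite to Pdk1, and Pdp1, Pdp2 and Ldhd were lower. Of 8 other pentose phosphate genes, 2 were higher and 2 lower in KO, and 2 were higher and 2 lower in WT, with Rpia and Tktl1 higher and Prps1 and Prps2 lower in both. Of 21 other genes of the citrate cycle and linked steps, 3 were higher and 7 lower in KO, and 4 were higher and 5 lower in WT. Pck2 and Sdhd were higher, and Acss1 and Gpd2 lower, in both genotypes. Of the 13 regulators, 2 were higher and 6 lower in KO, and 2 were higher and 5 lower in WT. Hif1a averaged 363 ± 35.5 CPM in KO and 317 ± 30.7 CPM in WT aTreg cells, against 160.2 ± 12.8 and 149 ± 23.0 in rTreg cells. Myc averaged 154 ± 18.6 CPM and 155 ± 9.06 CPM, against 377 ± 22.1 and 328 ± 37.1, so that these activators of glycolytic genes moved in opposite directions. Txnip, which restrains glucose uptake, averaged 577 ± 53.8 CPM and 561 ± 17.3 CPM, against 982 ± 136 and 918 ± 102.

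The 12 markers of activated Treg cells summed to 4542 to 5074 CPM in KO and 5028 to 5475 in WT aTreg libraries. In rTreg libraries they summed to 727 to 924 CPM in KO and 662 to 808 in WT. The 8 resting-state markers summed to 1419 to 1915 CPM in KO and 1501 to 1738 in WT aTreg libraries. In rTreg libraries these summed to 5136 to 5266 CPM in KO and 5274 to 5483 in WT. The 20 cell cycle markers summed to 1161 to 1338 CPM in KO and 1218 to 1653 in WT aTreg libraries, against 649.9 to 869 and 574 to 761 in rTreg libraries, with 17 of 20 higher in KO and 19 in WT. The 15 myeloid markers summed to 257 to 308 CPM in KO and 367 to 491 in WT aTreg libraries, against 108 to 138 and 125 to 137 in rTreg libraries, with 14 of 15 higher in each genotype and none at 0 in any of these groups. The 10 dendritic cell markers summed to 873 to 1053 CPM in KO and 804 to 1494 in WT aTreg libraries, against 359 to 503 and 314 to 448 in rTreg libraries, and of 9 tested, 5 were higher and 0 lower in KO and 7 were higher and 0 lower in WT. The 9 CD8 and NK cell markers summed to 331 to 471 CPM in KO and 273 to 291 in WT aTreg libraries, against 104 to 143 and 92.4 to 98.0 in rTreg libraries, and of 7 tested, 3 were higher and 2 lower in KO and 3 were higher and 2 lower in WT. The 9 B cell markers summed to 109 to 128 CPM in KO and 98.4 to 118 in WT aTreg libraries, against 71.2 to 83.2 and 67.4 to 79.4 in rTreg libraries, and of 9 tested, 2 were higher and 0 lower in KO and 0 were higher and 0 lower in WT. The 9 stroma and epithelium markers summed to 169 to 186 CPM in KO and 159 to 186 in WT aTreg libraries, against 292 to 341 and 296 to 363 in rTreg libraries, and of 7 tested, 3 were higher and 1 lower in KO and 2 were higher and 1 lower in WT. None of these sums overlapped between the populations of a genotype. Klra8 and the keratin gene Krt5 were at 0 in all 4 groups and Krt8 in WT aTreg cells. The share of reads outside genes was 45.0 to 46.7% in KO aTreg and 48.6 to 49.7% in KO rTreg libraries, with no overlap. In WT this share overlapped. The part of all these markers and of this share in the enzyme differences was not tested. In KO the calls of Pgam1, Pfkfb3 and Cs ended without at least 1 single library (6, 6 and 3 of the 8 libraries, adjusted p up to 0.193). With the replicate number as a block the call of Pgam1 in KO also ended (adjusted p = 0.0531), and Fh1 passed (log2 fold change 0.16 ± 0.06 SE, adjusted p = 0.0301) with Ldha and Pkm. In WT the call of Pgk1 ended without aTreg library 3, that of Pfkm without aTreg library 3 or rTreg library 2, that of Idh3a without aTreg library 3 or rTreg library 1, that of Fh1 without aTreg library 2 or 3 or rTreg library 1, and that of Pgam1 without any of 4 libraries (adjusted p up to 0.142).

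Splenic and thymic Treg cells of the same genotype were compared next. In KO mice 5 enzymes were higher in rTreg than in thymic Treg cells, where 19.6% of all genes were, and 11 lower, where 23.3% were. In WT mice 5 were higher, where 13.9% were, and 6 lower, where 16.7% were. Between aTreg and thymic Treg cells 6 were higher in KO (20.6% of all genes) and 11 lower (21.3%), and in WT 10 were higher (19.9%) and 5 lower (20.4%). Median log2 fold changes of the 35 were -0.09 in KO and 0.05 in WT for rTreg cells, and -0.16 and 0.04 for aTreg cells, beside medians over all genes of -0.02, -0.01, -0.01 and -0.01. Both comparisons use the same thymic Treg libraries, so their values are given side by side only.

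Ldhb and Pfkm were lower in both splenic populations and both genotypes. In thymic Treg cells Ldhb read 110.2, 117, 114 and 118 CPM in the KO and 96.2, 112 and 115 CPM in the WT thymic Treg libraries, and every splenic Treg library lay below its thymic group. Ldhb was 28.6% lower in KO and 23.5% lower in WT rTreg cells, and 42.6% and 47.3% lower in aTreg cells. Pfkm read 27.98, 17.9, 18.2 and 26.7 CPM in the KO and 26.4, 24.8 and 24.0 CPM in the WT thymic Treg libraries and was 29.4% lower in KO and 29.4% lower in WT rTreg cells, and 49.7% and 49.2% lower in aTreg cells. Pdk1 and Me2, low in thymic Treg cells, were higher in rTreg cells, Pdk1 with a log2 fold change of 0.89 ± 0.13 SE in KO and 0.81 ± 0.15 SE in WT and Me2 with 0.35 ± 0.08 SE and 0.36 ± 0.09 SE. In aTreg cells Pdk1 did not pass the test (0.04 ± 0.13 SE in KO and -0.25 ± 0.15 SE in WT), while Me2 was lower than in thymic Treg cells, with a log2 fold change of -0.30 ± 0.08 SE in KO and -0.47 ± 0.09 SE in WT. With the replicate number as a block Pdk1 passed as lower in WT aTreg cells (-0.26 ± 0.10 SE, adjusted p = 0.0427). Tpi1 and Pgam1 were lower in rTreg cells, Tpi1 with a log2 fold change of -0.80 ± 0.11 SE in KO and -0.59 ± 0.12 SE in WT, and in aTreg cells neither passed the test. With the block Tpi1 passed as lower in KO aTreg cells (-0.24 ± 0.09 SE, adjusted p = 0.0412). Pgam1 rests on few unique reads, with 3.66, 3.29, 4.79 and 4.42 CPM in the KO and 3.26, 4.53 and 4.12 CPM in the WT thymic Treg libraries against 2.51, 3.03, 1.97 and 2.70 in KO and 2.62, 2.09 and 2.97 in WT rTreg libraries.

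G6pdx read 60.8, 55.0, 60.0 and 57.3 CPM in the KO and 53.9, 51.7 and 51.5 CPM in the WT thymic Treg libraries. It was higher in rTreg cells (log2 fold change 0.37 ± 0.08 SE in KO and 0.42 ± 0.09 SE in WT) with no overlap of libraries. Cs, which starts the citrate cycle, read 310.1, 269, 264 and 301 CPM in the KO and 281, 287 and 283 CPM in the WT thymic Treg libraries, against 339, 319, 349 and 307 in KO and 330.1, 350.2 and 296 in WT rTreg libraries. It was higher in rTreg cells (0.20 ± 0.06 SE and 0.20 ± 0.07 SE on the log2 scale), a small difference next to the spread of the KO libraries, which overlapped. Pkm read 1251, 955, 1143 and 1203 CPM in the KO and 968, 1012 and 1075 CPM in the WT thymic Treg libraries and was 21.6% lower in KO and 17.2% lower in WT rTreg cells, with overlapping libraries in both genotypes. Aldoa and Fh1 (fumarate hydratase) were lower in KO rTreg cells, by 22.7% and 16.9%, and did not pass the test in WT (adjusted p = 0.132 and 0.489). Fh1 read 82.8, 90.4, 83.1 and 83.4 CPM in the KO and 69.3, 74.4 and 75.8 CPM in the WT thymic Treg libraries, against 68.8, 73.8, 69.0 and 70.7 in KO and 64.4, 71.5 and 71.1 in WT rTreg libraries.

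In aTreg cells Acly, Mdh1, Idh3a, Aldoc, Pfkp and Gapdh were higher than in thymic Treg cells of both genotypes, and Pdha1 and Pfkfb3 were lower together with Ldhb, Pfkm and Me2. Acly read 242, 168, 189.9 and 244 CPM in the KO and 209.6, 199 and 215 CPM in the WT thymic Treg libraries, and every aTreg library lay above its thymic group, with a log2 fold change of 0.49 ± 0.10 SE in KO and 0.57 ± 0.11 SE in WT (adjusted p = 0.000179 in KO and 0.000139 in WT). Mdh1 read 541, 577, 566 and 481 CPM in the KO and 450.3, 462 and 471 CPM in the WT thymic Treg libraries and had a log2 fold change of 0.20 ± 0.08 SE in KO and 0.47 ± 0.09 SE in WT. For Idh3a, given above in thymic cells, the log2 fold change of 0.34 ± 0.07 SE in KO and 0.47 ± 0.08 SE in WT came with separate groups. Aldoc was 1.71 and 2.87 times higher. Mdh2 and Taldo1 were higher in WT aTreg cells (log2 fold change 0.28 ± 0.06 SE and 0.28 ± 0.07 SE). Mdh2 read 547, 516, 554 and 506 CPM in the KO and 478, 482 and 501 CPM in the WT thymic Treg libraries, against 533, 544, 581 and 572 in KO and 559.5, 576 and 643 in WT aTreg libraries. Taldo1 read 249, 252, 258 and 256 CPM in the KO and 241, 264 and 290.0 CPM in the WT aTreg libraries. In KO neither passed the test (adjusted p = 0.3 and 0.632). Gapdh, measured on few unique reads, read 1.95, 2.003, 2.55 and 2.11 CPM in the KO and 2.62, 2.63 and 2.21 CPM in the WT thymic Treg libraries, against 4.36, 3.84, 5.33 and 3.89 in KO and 4.05, 3.76 and 3.26 in WT aTreg libraries and 4.33, 3.63, 4.37 and 3.85 and 3.08, 2.94 and 3.92 in rTreg libraries. Pfkfb3, the maker of the phosphofructokinase activator, read 39.5, 38.1, 37.2 and 36.1 CPM in the KO and 45.00, 44.2 and 35.7 CPM in the WT aTreg libraries, and 48.1, 38.5, 54.7 and 42.9 in KO and 47.3, 46.6 and 38.3 in WT rTreg libraries. For aTreg cells it had a log2 fold change of -0.49 ± 0.11 SE in KO and -0.44 ± 0.13 SE in WT. In KO alone, Pfkl, Pdhb, Ldha, Pgd and Tkt were also lower in aTreg than in thymic Treg cells, and Hk2, Pfkl and Idh2 lower in rTreg cells, where Gapdh was higher. In WT alone, Aldoa and G6pdx were higher in aTreg cells, and in rTreg cells Idh3a was higher and Pfkfb3 lower. No enzyme passed the test of the difference between genotypes in these comparisons, given further on. Idh1 was lower in KO splenic Treg cells of both populations and did not pass the test in WT. It read 15.7, 16.9, 23.0 and 17.5 CPM in KO aTreg libraries and 23.4, 18.9 and 21.1 in WT ones, against 15.5, 20.1, 19.4 and 16.4 in KO rTreg libraries and 19.3, 22.2 and 21.6 in WT ones.

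Of the 60 other tested genes of these pathways, 8 were higher and 19 lower in KO rTreg cells than in thymic Treg cells, and 4 and 8 in WT. In aTreg cells 8 were higher and 18 lower in KO, and 15 and 17 in WT. Eno3 averaged 36.0 ± 0.596 CPM in KO and 40.5 ± 3.02 CPM in WT aTreg cells, and 97.1 ± 8.52 CPM and 89.9 ± 4.38 CPM in rTreg cells, against 187 ± 12.8 and 179.5 ± 12.9 in thymic Treg cells. Eno2 was likewise lower in both splenic populations. Slc2a3 was higher (log2 fold change 0.71 in KO and 0.48 in WT for rTreg cells, 0.72 and 0.55 for aTreg cells) and Slc16a3 lower in both. Adpgk, a glucokinase that uses ADP, was higher in rTreg cells, and Pdk2 was lower in both splenic populations. Among the regulators, Txnip averaged 982 ± 136 CPM in KO and 918 ± 102 CPM in WT rTreg cells, against 542 ± 27.2 and 569 ± 17.4 in thymic Treg cells, and Hif1a was higher in aTreg cells (log2 fold change 1.06 in KO and 0.93 in WT). Genes of cell handling also differed between the organs. The 14 genes of the handling stress list summed to 2019 to 2956 CPM in KO and 1939 to 2098 in WT rTreg libraries, and 1919 to 2435 and 1684 to 1825 in aTreg libraries, against 788 to 967 and 821 to 936 in thymic Treg libraries. Of these 14, 9 were higher and 2 lower in KO rTreg cells, 7 and 3 in WT rTreg cells, 10 and 1 in KO aTreg cells, and 7 and 1 in WT aTreg cells, and none was at 0. Sums of the myeloid, cell cycle, B cell, CD8 and NK cell and dendritic cell lists are given above by population. The 15 myeloid markers were lower in 15 cases in KO and 14 in WT rTreg cells, and in 10 and 0 in aTreg cells (1 higher in WT). Of the 20 cell cycle markers, 19 were lower in KO and 12 in WT rTreg cells, and 2 were higher and 4 lower in KO and 14 higher in WT aTreg cells. Of the 9 tested B cell markers, 5 were higher in rTreg cells and 8 in aTreg cells of each genotype. Of the 7 tested CD8 and NK cell markers, 2 were lower in rTreg cells of each genotype, and 4 in KO and 3 in WT aTreg cells (1 higher in KO). Of 9 tested dendritic cell markers, 4 in KO and 1 in WT were lower in rTreg cells, and 2 were higher in aTreg cells of each genotype (1 lower in KO). The share of reads outside genes was 48.6 to 49.7% in KO rTreg and 42.3 to 45.0% in KO thymic Treg libraries, with no overlap. It overlapped between rTreg and thymic Treg libraries in WT, and between aTreg and thymic Treg libraries in both genotypes. The part of any of these in the enzyme differences was not tested.

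In WT the count of enzymes between rTreg and thymic Treg cells was 6 without thymic Treg library 2 and 7 without library 3, beside 11 with all libraries. There the calls of Cs, Idh3a, Pkm, Pgam1, Pfkfb3 and Pfkm each ended without at least 1 library (adjusted p up to 0.2). In KO those of Hk2, Pfkl, Idh2 and Idh1 did (adjusted p up to 0.122), and without KO thymic Treg libraries 1 and 2 together 14 enzymes passed for rTreg cells, beside 16, with the calls of Hk2 (adjusted p = 0.0658), Idh2 (0.142) and Idh1 (0.325) ended and Hk1 gained (0.0359). For aTreg cells in KO the count was 13 instead of 17 without those libraries. The calls of Ldha (adjusted p = 0.0741), Aldoc (0.0812), Pdhb (0.116), Pfkp (0.185) and Idh1 (0.41) ended there, and Hk1 was gained (0.0326). Without KO thymic Treg library 2 alone, Hk1 (adjusted p = 0.00468) and Pfkfb3 (0.0368) were gained as lower in rTreg cells. Gpi1 (0.0149), Hk1 (0.00405), Pkm (0.0153) and Tpi1 (0.0448) were gained as lower in aTreg cells. Single libraries ended the calls of Mdh1, Ldha, Pgd, Pfkp, Pdhb, Idh1 and Pfkl in KO (adjusted p up to 0.125) and of G6pdx, Gapdh and Pfkfb3 in WT (up to 0.105).

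Isozyme makeup was described per kilobase, with no test. Pfkp was the main phosphofructokinase in every group. It made up 65.9 ± 1.53% of the transcript in KO and 65.7 ± 0.160% in WT aTreg cells, 63.0 ± 1.26% and 62.4 ± 1.49% in rTreg cells, 53.3 ± 1.03% and 55.0 ± 0.752% in thymic Treg cells, and 65.0 ± 1.78% and 65.0 ± 0.544% in CD4SP cells (mean ± SD, n = 4 KO and 3 WT). Thymic Treg cells thus had the lowest share of Pfkp and the highest of Pfkl, 35.4 ± 1.40% in KO and 31.6 ± 2.22% in WT, against 21.5 ± 2.01% and 22.2 ± 0.629% in CD4SP cells. Pfkm, the muscle form, was lowest in aTreg cells, 5.83 ± 0.827% in KO and 6.03 ± 0.326% in WT. Ldhb made up 13.9 ± 0.834% of lactate dehydrogenase transcript in KO and 14.5 ± 0.00407% in WT thymic Treg cells, and 9.90 ± 0.770% and 8.13 ± 1.12% in aTreg cells, the highest and lowest shares of the 4 populations in each genotype. Hk2 was a minor hexokinase everywhere, from 0.539 ± 0.297% in WT CD4SP cells to 5.51 ± 1.59% in KO thymic Treg cells. The ratio of Pdha1 to its kinase Pdk1 was 9.67 ± 1.29 in KO and 8.20 ± 0.838 in WT thymic Treg cells, against 3.39 ± 0.612 and 3.43 ± 0.765 in CD4SP cells.

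**Figure D3:**
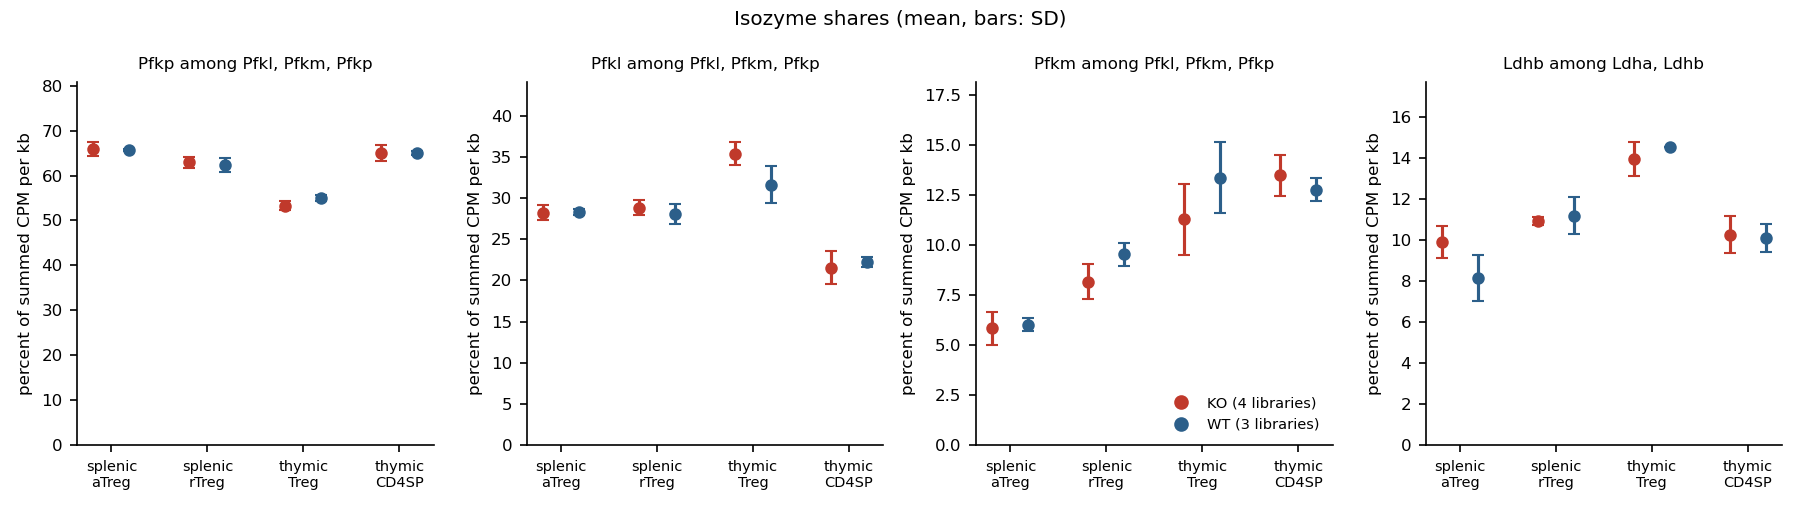
Share in percent of summed CPM per kilobase (vertical axis, from 0) of Pfkp, Pfkl and Pfkm among the phosphofructokinase genes and of Ldhb among the lactate dehydrogenase genes, by population, KO in red left of WT in blue. Points are group means and bars SD. Thymic Treg cells have the lowest Pfkp and the highest Pfkl and Ldhb shares, and aTreg cells the lowest Pfkm share.

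Loss of CNS3 was then compared within each population. In thymic Treg cells 2 of the 35 enzymes were higher in KO than in WT and none was lower, where 9.34% of all genes changed in either direction. The 2 were Aldoa and Tpi1, and 2 of 35 is a smaller share than that of all genes. Aldoa read 710.4, 628, 729 and 665 CPM in the KO and 543, 542 and 577 CPM in the WT libraries, and Tpi1 read 118, 108, 142 and 114 CPM in the KO and 85.2, 91.8 and 101 CPM in the WT libraries. Every KO library lay above every WT library for both. Aldoa had a log2 fold change of 0.30 ± 0.07 SE (adjusted p = 0.008) and Tpi1 of 0.38 ± 0.12 SE (adjusted p = 0.0391), which correspond to 1.23 and 1.30 times. The median log2 fold change was 0.12 over the 35 enzymes, beside 0.02 over all genes. Aldoc came next, at 8.22, 4.90, 9.93 and 8.42 CPM in the KO and 4.35, 4.19 and 5.75 CPM in the WT libraries that overlapped, with 0.72 ± 0.24 SE and adjusted p = 0.0528. Hk2 read 10.9, 10.9, 15.0 and 11.8 CPM in the KO and 9.05, 9.15 and 11.03 CPM in the WT libraries and missed the threshold, with 0.31 ± 0.36 SE on the log2 scale. Pdk1 read 69.5, 50.2, 57.1 and 61.7 CPM in the KO and 77.5, 65.2 and 68.6 CPM in the WT libraries, with -0.24 ± 0.14 SE (adjusted p = 0.29).

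DESeq2 called 5 of the 35 (background 12.5%), adding Aldoc, Mdh1 and Taldo1. Aldoa kept its call without any single library, with adjusted p of up to 0.0474. Without KO library 2 alone, Aldoc (adjusted p = 0.0158), Pfkl (0.0344) and Tkt (0.0469) also passed, all higher in KO. The call of Tpi1 ended without KO library 1 or 3 or WT library 1 or 2 (adjusted p 0.0625 to 0.174), without scaling factors (0.0564) and without KO libraries 1 and 2 together (0.0594, log2 fold change 0.46), where Aldoc passed (adjusted p = 0.0395). Myeloid markers moved with genotype, with sums in CPM of 933, 1231, 605 and 531 in KO libraries and 475, 364 and 329 in WT libraries, with 4 of 15 markers higher and none at 0. With their sum as a covariate Aldoa stayed past the test (log2 fold change 0.45, adjusted p = 0.00178), Aldoc passed it (1.16, adjusted p = 0.0265) and Tpi1 did not (0.27, adjusted p = 0.309). Cell cycle markers had sums in CPM of 1233, 1398, 1305 and 1177 in KO libraries and 818, 892 and 1043 in WT libraries, with 8 of 20 higher and none at 0. The 12 markers of activated Treg cells summed to 1435 to 1727 CPM in KO and 945 to 1154 in WT libraries, with 10 higher and none at 0. The 9 CD8 and NK cell markers summed to 459.7 to 541 CPM in KO and 308 to 360.3 in WT libraries, with 1 of 7 tested higher and 1 lower, and the 9 B cell markers to 47.8 to 53.2 and 33.4 to 37.5, with 1 of 9 lower. Klra8 was at 0 in both genotypes and Pax5 in WT. The 9 immature thymocyte markers summed to 248 to 281 CPM in KO and 327 to 429 in WT libraries, with 1 of 9 lower and none at 0, and the 9 stroma and epithelium markers to 251 to 293.5 and 293.9 to 336, with 1 of 7 tested higher and none at 0. None of these sums overlapped between the genotypes, and their part in the enzyme differences was not tested. Dendritic cell sums overlapped (508 to 923 CPM in KO and 440.3 to 606 in WT libraries) with no marker called or at 0. The share of reads outside genes was 42.6, 42.3, 42.6 and 45.02% in KO libraries and 49.3, 46.3 and 47.0% in WT libraries. These groups do not overlap, so that share and genotype cannot be told apart. With it as a covariate neither enzyme passed (log2 fold change 0.26 and adjusted p = 0.44 for Aldoa, 0.06 and 0.964 for Tpi1).

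Of the 60 other tested genes of these pathways, 4 differed between KO and WT thymic Treg cells, 2 in each direction. Bsg, the chaperone of lactate transporters, averaged 159 ± 10.3 CPM in KO and 129 ± 14.0 in WT libraries, a difference of 0.29 on the log2 scale (adjusted p = 0.0172). Sdhb, a subunit of succinate dehydrogenase, averaged 230.1 ± 18.9 CPM and 196 ± 1.35 (adjusted p = 0.035). Pfkfb2 averaged 14.8 ± 2.45 CPM in KO and 19.8 ± 1.44 in WT, and Acss1, a mitochondrial acetyl-CoA synthetase, 31.4 ± 2.81 CPM and 41.3 ± 3.31, both lower in KO. Of the 13 regulators, Nrf1 was lower (98.5 ± 9.87 CPM in KO and 117 ± 2.16 in WT, adjusted p = 0.0418). None of these 73 genes passed in the other 3 populations.

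In the other populations no enzyme passed the edgeR test between KO and WT, where 0.195% (CD4SP), 0.135% (rTreg) and 0.0300% (aTreg) of all genes did. DESeq2 called 0 in each (backgrounds 0.412, 0.360 and 0.0975%). In CD4SP cells the lowest edgeR adjusted p of the 35 enzymes was that of Hk2 (0.542). Hk2 read 0.450, 5.09, 1.01 and 1.15 CPM in the KO and 1.08, 0.303 and 0.939 CPM in the WT libraries. Its log2 fold change was 1.35 ± 0.49 SE. KO library 2 lay well above the other 6 libraries, and KO library 4 just above the highest WT library. In aTreg cells the lowest was that of Ldhb, which read 67.2, 63.2, 65.2 and 68.4 CPM in the KO and 55.0, 59.9 and 56.1 CPM in the WT libraries. The groups did not overlap, and the log2 fold change was 0.21 ± 0.09 SE (adjusted p = 0.67). Median log2 fold changes of the 35 enzymes were -0.04 in CD4SP, 0.03 in rTreg and -0.07 in aTreg cells, beside medians over all genes of 0.00, 0.00 and 0.00.

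Whether the KO effect differed between populations was tested on its own. In the edgeR fit with TMM scaling and no block, no enzyme passed for thymic Treg minus CD4SP cells (background 0.615%), thymic Treg minus rTreg cells (0.0300%), thymic Treg minus aTreg cells (0.847%) or aTreg minus rTreg cells (0.00%). DESeq2 called 1, 0, 0 and 0 (backgrounds 2.38, 0.465, 2.58 and 0.00750%). The 1 was Aldoa, whose KO effect in thymic Treg cells exceeded that in CD4SP cells by 0.40 ± 0.10 SE on the log2 scale (edgeR adjusted p = 0.0665). The corresponding difference for Aldoa was 0.22 ± 0.10 SE against rTreg cells and 0.29 ± 0.10 SE against aTreg cells, and for Tpi1 it was 0.38 ± 0.17 SE, 0.21 ± 0.16 SE and 0.48 ± 0.16 SE against CD4SP, rTreg and aTreg cells. With edgeR Aldoa passed with the replicate number as a block (adjusted p = 0.0327), without scaling factors (0.048) and without any 1 of 4 single libraries (0.034 to 0.0499).

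**Figure D4:**
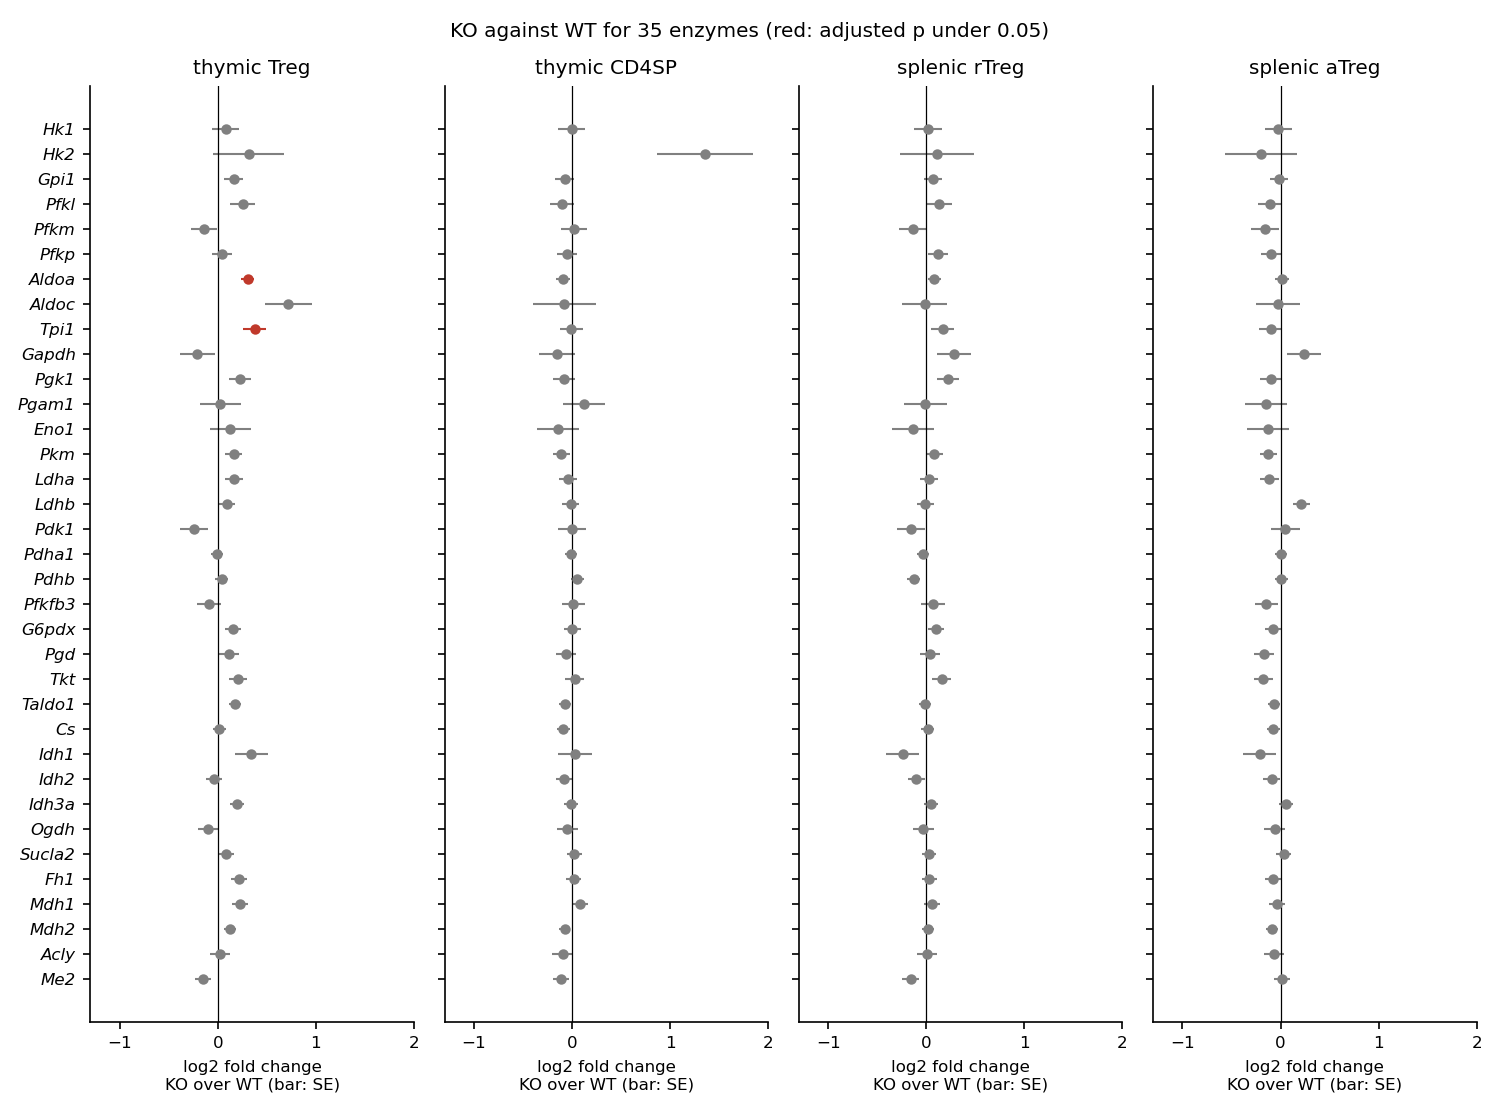
Log2 fold change of KO over WT (horizontal axis, bars SE) for each of the 35 enzymes (rows) in the 4 populations (panels), with enzymes past the test in red. Aldoa and Tpi1 are red in thymic Treg cells, no enzyme is red elsewhere, and the wide bar in CD4SP cells belongs to Hk2.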

How the data were processed

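RNA-seq was made from sorted male mouse CD4 T cells, amplified by the SMART method per the labels' protocols. The deposited files hold raw HTSeq read counts per gene symbol, made by the authors with Trimmomatic, STAR and HTSeq on mm10, per the submitters' processing notes; tool versions and strand setting: not given in the sources used here. Lines that name no gene were left out: 42.3 to 49.7% of reads fell in no gene and 22.8 to 30.4% at several places. Counts were tested with edgeR 4.0.16 (R 4.3.3), 1 mean per group over all 28 libraries, TMM scaling, a filter on low counts and a threshold of 0.05. DESeq2 1.42.0, other scaling, no filter, covariates, a replicate block and libraries left out were alternatives. The procedure was run on simulated data with planted changes larger than those of the enzymes called between KO and WT. The simulation therefore does not cover differences of that size. Enzymes and gene lists were chosen with earlier results of these data known. All 35 enzymes may be named; per-library values are given for up to 6 past the test per direction with the smallest adjusted p and for the isozyme pairs, and up to 3 other genes are named per list and direction. Libraries of a group differed by more than sampling noise (chi-square per degree of freedom 7.31 to 39.6). Replicate numbers come from the titles. The criterion for pairing, a correlation over 0.1 between the deviations of every same-numbered pair of libraries, was met for KO aTreg and rTreg (0.121 to 0.232) and for WT thymic Treg and CD4SP libraries (0.107 to 0.133).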

Additional observations from a re-analysis of the deposited data

Results flagged for a closer look

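In 9 of 140 sets of 4 KO libraries (35 enzymes in 4 populations), 1 library lay far from the other 3 by Dixon's criterion, and chance flags about 1 in 20. KO CD4SP library 2 was high for Hk2 (5.09 CPM, others 0.45, 1.01 and 1.15), Idh1 (15.2 CPM, others 11.5, 11.6 and 12.1) and Fh1 (91.5 CPM, others 67.6, 70.4 and 71.5). KO thymic Treg library 2 was low for Pfkl (68.1 CPM, others 97.6, 101 and 103) and Pfkp (118 CPM, others 163, 166 and 169), and high for Fh1 (90.4 CPM, others 82.8, 83.1 and 83.4). Me2 read 96.4 CPM in KO thymic Treg library 3 (others 83.7, 84.6 and 85.3). Pgk1 read 21.5 CPM in KO aTreg library 3 (others 18.5, 18.5 and 18.6). Mdh2 read 577 CPM in KO rTreg library 3 (others 529, 532 and 536).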

How the results depend on the processing

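No enzyme called in a comparison reversed its direction under any alternative run. Between KO and WT thymic Treg cells the count of 2 enzymes became 5 with DESeq2, 1 without scaling factors and 0 when the percentage of reads outside genes was a covariate, and lay between 1 and 5 with 1 library left out. With the replicate number as a block it was 6. For the difference in KO effect between thymic Treg and CD4SP cells the count of 0 became 1 with DESeq2, without scaling factors and with the replicate block, and lay between 0 and 1 with 1 library left out. Between WT rTreg and thymic Treg cells it lay between 6 and 9 with 1 library left out, beside 11. In the KO comparison of aTreg with rTreg cells, where numbers pair the libraries, the block gave 18 enzymes beside 16, and in that of WT thymic Treg with CD4SP cells 20 beside 20. There it changed no other call than those of Pgam1, Fh1, Ldha and Pkm in KO. In the other 10 comparisons the pairing criterion was not met (correlations -0.096 to 0.212), although within genotypes 74 of 84 best correlations were with the same number, a hint from the data and not the design. There the block ended no call and added between 0 and 4. Between KO and WT thymic Treg cells it added Aldoc, Fh1, Mdh1 and Taldo1. It added Pfkp between WT aTreg and rTreg cells, and Idh3a and Ldha between KO thymic Treg and CD4SP cells. For rTreg against thymic Treg cells it added Taldo1 in WT and Pfkp and Pgk1 in KO. For aTreg against thymic Treg cells it added Fh1 and Pdk1 in WT and Gpi1 and Tpi1 in KO. The cause of these changes was not tested. Hk2 and Aldoc had as few as 11 and 12 reads in a library, which limits their precision.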
